A study of Rattus norvegicus with 4 samples.

Results

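The genes described here are 10 genes by which cells take up, bind, store and release fatty acids, measured in fibroblasts from rat tail tendon. They were listed by name, and a gene counted as measured where the platform annotation gave a probe set that symbol and no other. That held for 7 of the 10, each with 1 probe set: Lpl, Angptl4, Cd36, Fabp3, Fabp4, Plin2 and Pnpla2. Pparg, Fabp5 and Lipe had no such probe set and were not analysed here. The 7 stood among 14557 genes named by 14824 probe sets.

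The fibroblasts came from Lewis rats, all retired breeders, and were held in gels of type I collagen. They had 2 days in medium with 10% fetal bovine serum and then 24 hours in serum-free medium containing 10% clot releasate of either PRP or PPP, with 2 arrays for each. The abbreviations are those of the labels and are taken here as platelet-rich and platelet-poor plasma. No untreated arrays were analysed here, so a difference does not show which treatment moved a gene, and the labels do not say whether replicates were separate animals or cultures, so a p-value measures only the spread between these arrays. Over the named probe sets, arrays of the same treatment correlated at r of 0.994 to 0.995 and arrays of different treatments at 0.987 to 0.990. Of 11 measured tendon fibroblast markers, 10 had a mean level above the median of all probe sets. The exception was Tnmd, a membrane protein typical of tendon, whose mean log2 level was 4.46 under PPP and 3.11 under PRP. Some of these markers also moved with the treatment. Fmod, a collagen-binding proteoglycan, and Tnmd were called lower with PRP (log2 differences -2.43 and -1.36, adjusted p 0.00271 and 0.00861 by limma). The other 9 did not pass. Of the 11, 7 had negative and 4 positive differences, the highest being Dcn (0.56, adjusted p 0.0709 by limma) and Pdgfra (0.55, 0.0713). The summed linear level of the 11 was 6040 to 6339 with PPP and 5127 to 5213 with PRP. The part of these marker differences in the values below was not tested.

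Cells obtain fatty acids from lipoproteins, whose triglycerides lipoprotein lipase splits outside the cell, and from free fatty acids that membrane proteins such as CD36 help across the membrane. Small binding proteins of the FABP family carry them in the cytosol, coenzyme A ligases activate them, and what is not burnt is stored as triglyceride in lipid droplets coated by perilipins. Lipases such as the product of Pnpla2 draw on the droplet again. Nuclear receptors of the PPAR family, which bind fatty acids, are known to induce many of these genes, among them Angptl4, Plin2 and Fabp4.

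Transcripts of 3 of the 7 measured genes were higher with PRP than with PPP: Fabp4 by 3.04-fold, Angptl4 by 2.84-fold and Lpl by 1.73-fold. The count of genes that fell was 0, and 4 did not pass the test. A gene was called at an adjusted p below 0.05 by limma, a linear model with a moderated variance, with p adjusted over all 14824 probe sets. Of all probe sets tested, 0.830% were called higher and 1.02% lower. At an unadjusted p below 0.05, limma gave 4 of the 7 as higher and 1 as lower. Many of all probe sets also passed that threshold, so the 0.830% and 1.02% are no measure for these counts. The probe set of Actl11, with an unadjusted p of 0.0493 by limma, ranked 2389 of the 14824 by p. That ranking holds rises and falls in 1 list. The median log2 difference of the 7 was 0.45, beside -0.0027 over all probe sets. The members were chosen with earlier results of these data known. Comparisons of the 7 with all probe sets, here and below, are therefore descriptions and not tests of the set.

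The calls rest on few arrays and depended on the fit. When the fit took in all 36685 probe sets of the table, named or not, 0 of the 7 were called. Leaving out PPP replicate 2 also ended every call, and leaving out any of the other arrays left 1 call: Angptl4 in the absence of PPP replicate 1 or of PRP replicate 2, and Fabp4 in the absence of PRP replicate 1. Such a fit has 1 residual degree of freedom and takes the lone array of a group to vary like the other group, and over all probe sets its calls numbered 30 to 35 higher and 26 to 46 lower, beside 123 and 151 with all arrays. The log2 differences themselves moved less: over the 12 other settings that of Fabp4 lay between 1.45 and 1.76, that of Angptl4 between 1.38 and 1.63 and that of Lpl between 0.68 and 0.91.

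**Figure D1:**
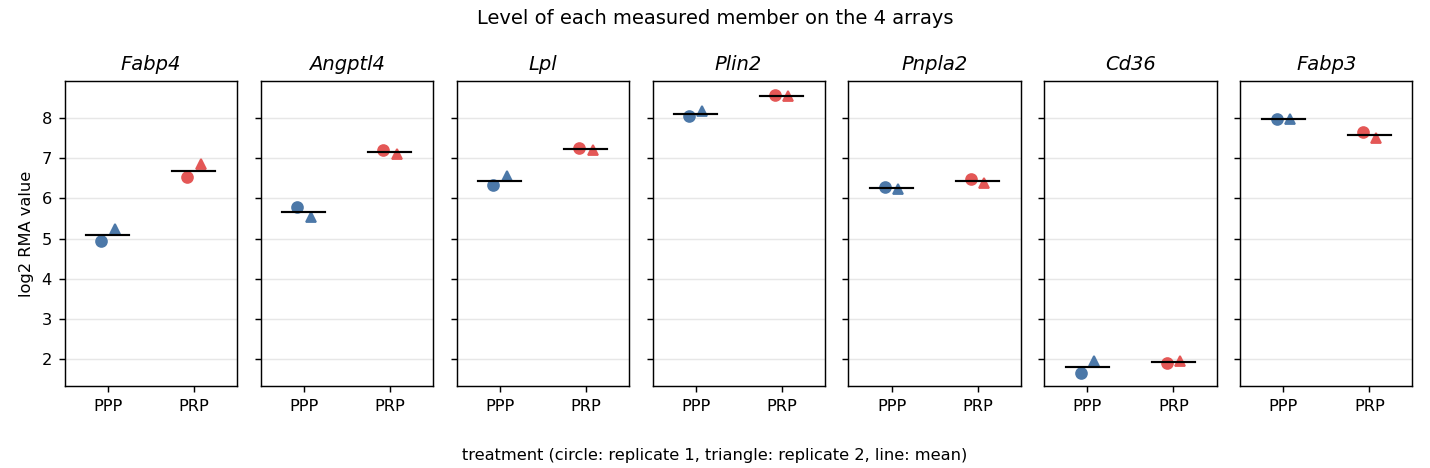
Log2 RMA values (vertical axis) of the 7 measured genes on the 2 PPP arrays (blue) and the 2 PRP arrays (red), with circles for replicate 1, triangles for replicate 2 and a line at each mean. The arrays of the groups lie apart in 6 genes and overlap in Cd36. Heights of different genes are not comparable.

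Angptl4 encodes a secreted protein that inactivates lipoprotein lipase. On the PPP arrays its log2 level was 5.78 and 5.53, and on the PRP arrays 7.21 and 7.10. Both PRP arrays stood above both PPP arrays, with a gap of 1.32 between the nearest. The log2 difference was 1.51 (SE 0.13, 95% interval 1.18 to 1.83, n = 2 each), with an adjusted p of 0.00718 by limma. It was called in 9 of the 12 other settings. It missed the threshold without PPP replicate 2 (adjusted p 0.0502), without PRP replicate 1 (0.0567) and in the fit of all 36685 probe sets (0.120).

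Lpl encodes lipoprotein lipase itself, which cells secrete and which frees fatty acids from circulating triglyceride. Its log2 level was 6.32 and 6.55 with PPP and 7.26 and 7.20 with PRP. The groups did not overlap, and the nearest arrays differed by 0.65. The log2 difference was 0.79 (SE 0.12, 95% interval 0.49 to 1.10, n = 2 each) and passed narrowly, at an adjusted p of 0.0432 by limma. It was called in 5 of the 12 other settings. It missed the threshold in the fit of all 36685 probe sets without (adjusted p 0.240) or with (0.0962) an intensity trend. The same held with the replicate number as a block (0.122). Without any 1 array it no longer passed (adjusted p from 0.0888 to 0.257). The enzyme and its inhibitor were thus both higher with PRP. Whether their differences were unequal was not tested.

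Promoter sequences were taken by symbol from RefSeq on the GRCr8 build, where 5 of the 7 measured genes matched, among the called ones Angptl4. The table holds 250 bases before and 50 after each annotated start. The window of Angptl4 is shown because this gene rose. That of Fabp3 is shown beside it because Fabp3 was the one measured gene with a negative difference. Capitals mark matches to TATAAA, the core of the TATA box, searched on both strands. In Angptl4 a match on each strand overlaps the other, and together they span the bases from 41 to 34 before the start. Fabp3 has no match in this window, nor have Plin2 and Pnpla2, while Cd36 has one from 175 to 170 bases before its start. The letters occur in 14.2% of the 33469 promoter windows in the table. A match is a description of the letters and does not show a working site. Only the exact letters were searched, so similar strings, such as the tatttaaa in the Fabp3 window, were not counted. The lack of a match therefore does not show that a site is absent. Angptl4 lies at chr7:15258632-15258931 (strand -) and Fabp3 at chr5:147935875-147936174 (strand +).
Angptl4: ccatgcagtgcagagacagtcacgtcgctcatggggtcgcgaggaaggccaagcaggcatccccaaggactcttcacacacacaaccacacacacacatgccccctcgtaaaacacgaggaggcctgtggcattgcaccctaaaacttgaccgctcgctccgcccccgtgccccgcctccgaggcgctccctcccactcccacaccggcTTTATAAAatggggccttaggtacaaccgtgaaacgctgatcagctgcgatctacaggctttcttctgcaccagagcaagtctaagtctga
Fabp3: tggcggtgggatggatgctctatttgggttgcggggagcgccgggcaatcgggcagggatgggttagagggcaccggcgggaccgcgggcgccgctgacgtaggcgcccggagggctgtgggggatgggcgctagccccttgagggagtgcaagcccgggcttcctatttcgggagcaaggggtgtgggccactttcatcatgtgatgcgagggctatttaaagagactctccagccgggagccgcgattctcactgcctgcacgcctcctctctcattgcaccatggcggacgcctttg

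Among the fatty acid binding proteins, Fabp4 and Fabp3 went different ways in value, and only the first passed the test. Fabp4, the form abundant in adipocytes and also made by macrophages and capillary endothelium, had log2 levels of 4.94 and 5.23 with PPP and 6.54 and 6.85 with PRP. Every PRP value stood above every PPP value, and the nearest differed by 1.30. Its log2 difference was 1.61 (SE 0.16, 95% interval 1.21 to 2.01, n = 2 each), with an adjusted p of 0.0110 by limma. That was the largest difference of the 7, and it ranked 29 among the rises of all probe sets. The call was kept without PRP replicate 1 (adjusted p 0.0365) and lost without PPP replicate 1 (0.0834), PPP replicate 2 (0.0572) or PRP replicate 2 (0.0678), and in the fit of all 36685 probe sets without (0.133) or with (0.0502) an intensity trend.

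Fabp3, the form typical of heart and skeletal muscle, had log2 levels of 7.97 and 7.98 with PPP and of 7.64 and 7.50 with PRP. Both PRP arrays lay below both PPP arrays. The log2 difference of -0.41 (SE 0.11, 95% interval -0.68 to -0.13) did not pass, at an adjusted p of 0.168 by limma. With an intensity trend in the variance it passed as a fall (adjusted p 0.0273). Whether Fabp4 and Fabp3 differed in their response was not tested as such, but their 95% intervals do not overlap. Fabp1, Fabp2, Fabp6, Fabp7 and Fabp9, other forms of the family, did not pass either, with log2 differences of 0.20, -0.12, -0.03, -0.19 and -0.17. Their mean log2 levels ran from 1.88 (Fabp1) to 2.31 (Fabp7), far below the median of all probe sets (4.11). Olfactory receptors, described below as a guide to background, had a median of 2.11, so the data say little about these forms. Fabp genes are related in sequence, and the probe sequences were not examined, so sharing of signal between members was not tested.

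Cd36 encodes a membrane receptor for long-chain fatty acids, oxidised lipoproteins and thrombospondin that is also abundant on platelets. Its log2 level was very low throughout, with 1.66 and 1.94 on the PPP arrays and 1.89 and 1.94 on the PRP arrays, and the groups overlapped. The log2 difference was 0.12 (SE 0.13, 95% interval -0.21 to 0.44, adjusted p 0.728 by limma). Its mean level stood at percentile 4.26 of all probe sets. The 74 probe sets of olfactory receptors, which fibroblasts are not known to use, had a median log2 level of 2.11. Levels of different probe sets are only roughly comparable, but nothing in the table separates a level this low from background, and the data say little about Cd36. Its difference turned to -0.0232 when PPP replicate 1 was left out.

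Plin2 encodes perilipin 2, the droplet coat protein of cells other than adipocytes, whose amount usually follows the amount of stored lipid. Its log2 level was 8.05 and 8.17 on the PPP arrays. On the PRP arrays it was 8.58 and 8.55, and both stood above both PPP values, by 0.38 at the nearest. The log2 difference was 0.45 (SE 0.11, 95% interval 0.18 to 0.72) with an adjusted p of 0.131 by limma, and it did not pass. It passed with an intensity trend (adjusted p 0.0108) and with dim probe sets left out (0.0403).

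Pnpla2 encodes adipose triglyceride lipase, which takes the first fatty acid off stored triglyceride. Its log2 level was 6.28 and 6.23 with PPP and 6.48 and 6.39 with PRP. The groups did not overlap, though the nearest arrays differed by only 0.11. The log2 difference was 0.18 (SE 0.11, 95% interval -0.08 to 0.44, adjusted p 0.472 by limma). The upper end of that interval lies below the difference of every called member, while a smaller rise is within it.

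In 5 of the 7 genes both PRP arrays lay above both PPP arrays, and in 1, Fabp3, both lay below. Over all probe sets tested these shares were 23.9% and 22.5%.

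**Figure D2:**
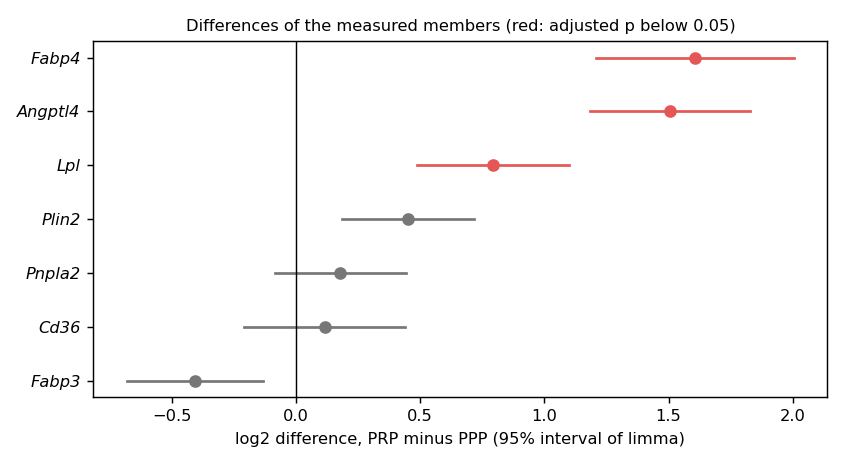
Log2 difference, PRP minus PPP (horizontal axis), of the 7 measured genes, with the 95% interval of limma as a bar. The 3 genes past an adjusted p of 0.05 are red, and the intervals of Pnpla2 and Cd36 include 0.

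Other genes of the pathway were set beside these. Of 120 further genes of fatty acid handling, listed by role, 89 were measured. Of these, 0 rose, 2 fell and 87 did not pass, beside the 0.830% and 1.02% of all probe sets. Their median log2 difference was -0.01. With an intensity trend, 4 were called higher, beside 3.00% of all probe sets in that fit. With dim probe sets left out, 4 were called higher as well, beside 4.87% of the 7412 probe sets kept. That filter also removes the dim ones of the 89. Whether they differed from the 7 was not tested. At the extremes they ranged from -1.05 to 0.63, so none of them had a difference as high as that of Lpl.

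**Figure D3:**
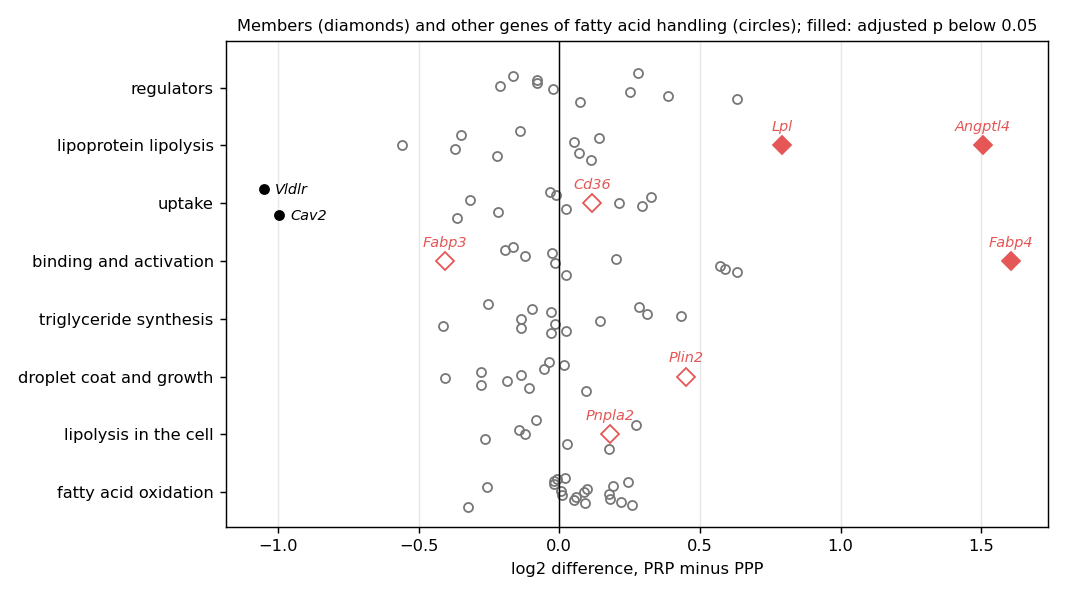
Log2 difference, PRP minus PPP (horizontal axis), of the 7 measured genes (diamonds) and of the 89 further genes of fatty acid handling (circles), by role. Filled symbols passed an adjusted p of 0.05: Fabp4, Angptl4 and Lpl on the right, Vldlr and Cav2 on the left.

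Both genes that fell belong to uptake, where 11 further genes were measured. Vldlr, the very low density lipoprotein receptor, which binds triglyceride-rich particles, had log2 levels of 6.60 and 6.76 with PPP and 5.58 and 5.68 with PRP. It was 2.07-fold lower with PRP, a log2 difference of -1.05 (SE 0.12), with an adjusted p of 0.0141 by limma. Cav2, a caveolin of the membrane pits that also hold Cav1, had log2 levels of 8.42 and 8.26 with PPP and 7.35 and 7.34 with PRP. Its log2 difference was -0.995 (SE 0.11, adjusted p 0.0157 by limma), and its other probe set gave -0.96 (adjusted p 0.0141). Cav1 was at -0.36 and did not pass (adjusted p 0.225). With 1 array left out neither fall passed (adjusted p from 0.0737 to 0.119 for Vldlr and from 0.0668 to 0.122 for Cav2), nor did it in the fit of all 36685 probe sets (0.150 and 0.160).

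Among the partners of Lpl and Angptl4, 0 of 9 measured genes were called. The smallest p was that of Gpihbp1, the anchor that holds lipoprotein lipase on capillary endothelium, with a log2 difference of -0.56 (SE 0.12, adjusted p 0.113 by limma). Its log2 level was low, with a mean of 3.97 on the PPP and 3.41 on the PRP arrays.

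Of 10 further binding and activation genes, 0 were called. Acsl1, a ligase that joins long-chain fatty acids to coenzyme A, came nearest, with log2 levels of 5.55 and 5.59 with PPP and 6.12 and 6.29 with PRP. Its log2 difference was 0.63 (SE 0.11, 95% interval 0.35 to 0.92) and its adjusted p 0.0679 by limma. Acsl3 and Acsl4, ligases of the same family that were picked out after their values were seen, were at 0.59 (adjusted p 0.116 by limma) and 0.57 (0.132). In each of the 3 ligases both PRP arrays stood above both PPP arrays, as in 23.9% of all probe sets tested. In Acsbg1, a further acyl-CoA ligase of this role group, the groups overlapped (log2 difference 0.02).

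Of 10 regulators, 0 were called. Ebf2, a transcription factor of adipocyte precursors, had the smallest p, with a log2 difference of 0.63 (SE 0.12, adjusted p 0.0796 by limma). Ppara and Ppard, the other receptors of the PPAR family, were at 0.25 and -0.02. The log2 level of Ppara was low as well, with means of 2.41 (PPP) and 2.66 (PRP).

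Genes of triglyceride synthesis, droplets, lipolysis and oxidation gave 0 calls in 13, 10, 7 and 19 measured. The smallest p of each group belonged to Agpat5, an acyltransferase of phosphatidic acid synthesis (log2 difference -0.41, adjusted p 0.161 by limma), Fitm1, a protein of droplet formation (-0.41, 0.258), Pde3b, the phosphodiesterase by which insulin restrains lipolysis (0.27, 0.285), and Acaa2, a thiolase of mitochondrial oxidation (-0.33, 0.241). The log2 level of Fitm1 was low, with means of 2.94 (PPP) and 2.53 (PRP). Of the 19 oxidation genes, 14 had a positive difference (49.3% of all probe sets did), and all 19 lay between -0.33 and 0.26. Abhd5 and G0s2, the activator and the inhibitor of the lipase made from Pnpla2, had differences of 0.18 and -0.12.

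Fabp4, Lpl and Cd36 are also expressed by cells that a tendon culture or a plasma product could carry, so markers of those cells were set beside them. In a bulk culture fewer cells of a type and less RNA per cell cannot be told apart. Of 10 measured adipocyte markers other than the members, 0 were called, and the mean level of all 10 lay below the median of all probe sets. Plin1, Cidec and Cebpa among them were also counted in the 89 further genes. Adipoq, the adipocyte hormone adiponectin, had a log2 difference of 0.02 and Plin1, the perilipin of adipocytes, of -0.05. Mean log2 levels of the 10 ran from 2.67 to 3.75. The percentiles 5 and 95 of the olfactory receptor probe sets were 1.47 and 3.73, so differences at these levels say little about adipocyte content. The summed linear level of the adipocyte list was 88.8 to 97.1 with PPP and 86.3 to 89.4 with PRP.

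Of 12 measured macrophage and leukocyte markers, 0 were called, and 11 lay below that median. Their sum was 166 to 176 with PPP and 177 to 179 with PRP, and without Cd14, the brightest of them, 88.4 to 99.5 and 76.3 to 79.0. Of the 12, 9 had negative differences, the lowest being those of Tyrobp, a myeloid signalling adaptor (-0.87, adjusted p 0.0559 by limma), and C1qa, a complement subunit (-0.59, 0.133). Of 9 endothelial markers, 0 were called, 8 lay below the median, and their sum was 82.2 to 84.8 with PPP and 83.9 to 91.6 with PRP (67.4 to 68.5 and 60.9 to 65.1 without Tek, the brightest). The part of either cell type in the rise of Fabp4 was not tested.

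Of 6 measured platelet markers, 1 was called: Pf4, platelet factor 4, with a log2 difference of 1.85 (adjusted p 0.00398 by limma). The platelet sum was 58.4 to 72.4 with PPP and 95.01 to 95.06 with PRP, while the other 5 markers had differences from -0.22 to 0.03. Of 7 skeletal muscle markers, 1 fell: Acta1, skeletal muscle actin, with a log2 difference of -1.12 (adjusted p 0.0429 by limma). The other 6 muscle markers had differences from 0.02 (Ckm, muscle creatine kinase) to 0.47 (Actn3, a muscle actinin). The muscle sum was 191 to 214 with PPP and 140 to 144 with PRP, but without Acta1 it was 68.7 to 85.5 and 80.9 to 89.7, so the lower sum beside the Fabp3 level came from Acta1. The part of platelet or muscle RNA in these levels was not tested.

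The genes whose values ran closest to those of each called gene were found by the Euclidean distance between the centred log2 values over the 4 arrays. The measure mostly matches the size of the difference between treatments and says nothing of shared control. For Angptl4 they were Ptx3, a soluble pattern-recognition protein (distance 0.12), Cxcl16, a chemokine (0.16), and Tlr2, a receptor for bacterial lipoproteins (0.24). For Fabp4 they were Prl8a9 of the prolactin family (0.16), Agtr1a, an angiotensin receptor (0.19), and Shc4, a signalling adaptor (0.24). For Lpl they were Mcm10, a replication factor (0.08), Arhgap18 (0.08), and Wipi2, a protein of autophagosome formation (0.09).

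**Figure D4:**
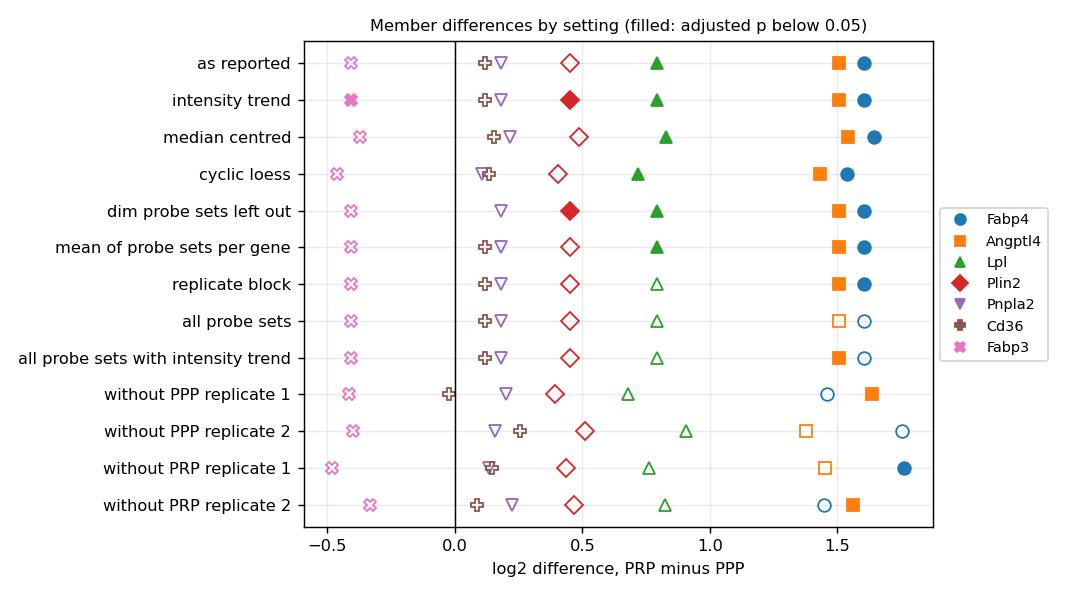
Log2 difference, PRP minus PPP (horizontal axis), of the 7 measured genes under each way of processing (rows), with filled symbols where the adjusted p was below 0.05. Fabp4 and Angptl4 stay to the right of the other genes in each row, while the number of filled symbols varies from 0 to 5.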

How the data were processed

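Amplified RNA was hybridised to 4 Affymetrix arrays. The deposited log2 values cover 36685 probe sets. The submitters' processing notes name RMA, oligo and limma, with no version, and the values have the form RMA gives. Genome build and annotation version: not given in the sources used here. RMA equalises the arrays, so a change in total RNA per cell would not show, and no detection call was used here.

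Gene symbols came from the platform annotation, which gave 14824 probe sets exactly 1 symbol and 829 several. These 14824 were fitted with limma 3.58.1 (R 4.3.3) by a two-sided moderated test without an intensity trend, adjusted by Benjamini-Hochberg, with 2 residual and 3.87 prior degrees of freedom. The fit was tested on simulated data. Where a gene had several probe sets, that with the highest mean counted. In arrays the number of arrays, not read depth, limits the precision.

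Beside every member, the text names in each role group the called genes, or else the gene with the smallest p, and the 3 genes most like each called member. Other genes are named as examples. The members and lists were chosen with earlier results of these data known. Alternatives were an intensity trend, all probe sets, a filter on dim ones, median centring, cyclic loess, a replicate block, probe set means and leaving out each array.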

Additional observations from a re-analysis of the deposited data

How the results depend on the processing

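The log2 differences of Fabp4, Angptl4, Lpl, Plin2, Pnpla2 and Fabp3 kept their direction in all 12 other settings, and that of Cd36 in 10 of 11 (it ran from -0.0232 to 0.256 over the fits with an array left out, and was negative without PPP replicate 1; a filter on dim probe sets left it out). The calls did not hold as well. Of the 7 members, 0 were called higher in a fit of all probe sets, 1 in that fit with an intensity trend (chosen after seeing the data) and 0 to 1 with an array left out; an intensity trend called 1 lower. Of all probe sets, an intensity trend called 444 higher and 364 lower, a fit of all probe sets 2 and 0, that fit with a trend 65 and 80, a filter on dim ones 361 and 289, and leaving out an array 30 to 35 and 26 to 46. Median centring called 198 higher and 176 lower. Of the further pathway genes, 4 were called higher with a trend, 4 with dim ones left out and 1 with median centring; the number called lower was 0 in a fit of all probe sets, 1 in that fit with a trend and 0 with any array left out. Of the cell type markers, where 1 was higher and 3 lower, a trend called 3 and 8, a fit of all probe sets 0 and 0, that fit with a trend 2 and 1, a filter 4 higher, centring 3 higher, cyclic loess 5 lower, and leaving out an array 1 higher and 1 to 2 lower. The cause of these shifts was not tested. With the replicate number as a block, 51 probe sets were called higher and 72 lower, 1 further pathway gene lower, and 2 of the 7 members higher: Lpl and Cav2 lost their calls (adjusted p 0.122 and 0.0595 by limma). The labels do not say whether a number marks a shared animal or day. Same-numbered arrays deviated together at r = 0.01 over the named probe sets. That single correlation cannot settle whether they shared an animal or day.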
